A study of Mus musculus with 6 samples.

Results

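Expression of the pathway that runs from small GTPases through the PAK and LIM kinases to cofilin was examined in mouse prefrontal cortex. Its 10 genes were taken by name: the GTPases Rac1, Cdc42 and Rhoa, the p21-activated kinases Pak1, Pak2 and Pak3, the LIM kinases Limk1 and Limk2, and the cofilins Cfl1 and Cfl2. All 10 were found among the 54134 gene symbols of the count tables, and all 10 were among the 18705 genes left after removal of low counts. The samples were bulk prefrontal cortex RNA of mice 6 to 8 weeks old, in 3 groups of 2 libraries, each from its own mouse: wild-type animals (WT, a C57BL/6 x C3H cross) given vehicle, Shank3 +/ΔC mice given vehicle, and Shank3 +/ΔC mice given GSK-LSD1. Shank3 +/ΔC animals carry 1 copy of Shank3, a scaffold of excitatory synapses, that lacks the C-terminal part of the protein. GSK-LSD1 inhibits the histone demethylase LSD1, the product of Kdm1a. No wild-type group given GSK-LSD1 was analysed here, so the inhibitor could be compared only within the mutants. The genetic background of the mutants and the dose, route and timing of the inhibitor are not stated in the labels used here.

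Rac1, Cdc42 and RhoA are molecular switches that bind GTP when active. GTP-bound Rac1 and Cdc42 bind and activate the PAK kinases, RhoA acts through its own kinase ROCK, and both PAK and ROCK phosphorylate the LIM kinases. LIM kinases in turn phosphorylate cofilin and so stop it from severing actin filaments, which in cortical neurons shapes the dendritic spine and the supply of receptors to the synapse. Switching takes place through nucleotide exchange and phosphorylation. The values here are messenger RNA levels and carry no measure of GTP loading, kinase activity or cofilin phosphorylation.

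Several members have processed copies elsewhere in the genome, and 4 stretches of sequence are shown first because they set how cleanly reads can be assigned. Gm6180 (GRCm38 chr8:42246911-42247408, plus strand), annotated as a pseudogene, matched Cfl1 (chr19:5490455-5495201, plus strand) over 498 bases and differed from it at 6 of them. Gm12844 (chr4:117728718-117729299, minus strand) matched Rhoa (chr9:108306129-108337934, plus strand) over 579 bases with 11 differences. Windows of 90 bases from the coding part were chosen for the most differing bases. They are given 5′ to 3′ from the GENCODE M21 transcripts, with the differing bases in capitals.
Cfl1: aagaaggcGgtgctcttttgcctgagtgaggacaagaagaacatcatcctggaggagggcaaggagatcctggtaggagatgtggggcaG
Gm6180: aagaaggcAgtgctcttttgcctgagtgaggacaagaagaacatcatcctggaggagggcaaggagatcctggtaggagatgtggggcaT
Rhoa: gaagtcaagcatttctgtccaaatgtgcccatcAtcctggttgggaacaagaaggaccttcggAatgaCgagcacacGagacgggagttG
Gm12844: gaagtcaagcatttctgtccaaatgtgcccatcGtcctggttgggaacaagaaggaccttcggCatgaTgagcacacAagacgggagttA
The first pair differed at 2 positions of its window and the second at 5. Within the matched stretch, a read that covers no differing position could come from either gene. How the authors treated such reads is not stated in the labels used here.

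The other members lie at chr5:143503634-143528036 (Rac1, minus strand), chr4:137319696-137357720 (Cdc42, minus), chr7:97788541-97912381 (Pak1, plus), chr16:32016290-32079342 (Pak2, minus) and chrX:143518591-143797796 (Pak3, plus). Limk1 lies at chr5:134656039-134688598 (minus), Limk2 at chr11:3344256-3409189 (minus) and Cfl2 at chr12:54858809-54862877 (minus).

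Reads assigned to the copies were a sizeable addition to 3 members. The 4 copies of Cfl1 together held 27.0% to 32.1% as many reads as Cfl1 itself in the 6 libraries, nearly all of them in Gm6180. The 2 copies of Rhoa held 30.5% to 34.9% as many reads as Rhoa, and the 3 copies of Cdc42 held 13.5% to 15.5% as many as Cdc42. Levels of Cfl1, Rhoa and Cdc42 are therefore uncertain. These shares do not bound that uncertainty, since the treatment of reads that match a gene and its copy equally is not stated. Rac1 shares 2309 of its 4496 exonic bases (51.4%) with Daglb on the opposite strand, and Cfl1 shares 468 of 2844 (16.5%) with Snx32, also on the opposite strand. The library kit keeps strand, but the strand setting of the counting is not given. Neither Daglb nor Snx32 passed the test in any comparison made below.

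Depth ran from 14133834 to 28646960 counted reads per library, and the 2 libraries of a group were further apart than counting noise allows. A level in CPM is the read count divided by the library total, with TMM correction (for differences in RNA composition between libraries), and 3 counts in a library correspond to 0.105 to 0.212 CPM. Shank3 itself stood at 153 and 160 CPM in the wild-type libraries, at 146 and 174 in Shank3 vehicle and at 159 and 148 in Shank3 GSK-LSD1. The count covers exons outside the deleted part, so it does not check the genotype labels. Kdm1a lay between 86.3 and 102 CPM in all 6 libraries, and neither gene passed the test in any comparison. Slc17a7, the vesicular glutamate transporter of cortical excitatory neurons, was at 1923 and 1674.5 CPM in wild type. It was at 1423 and 1276 CPM in vehicle-treated mutants, and at 1435 and 1156 in GSK-LSD1-treated mutants. The summed levels of marker lists also differed between libraries, that of oligodendrocytes within the GSK-LSD1 group as well. That of 16 hypothalamus, septum and preoptic markers was 62.6 CPM in the second GSK-LSD1 library and 17.5 to 31.2 in the others. Of its 5 tested markers 0 were called in any comparison. That of 10 oligodendrocyte precursor markers was 228 and 250 CPM in wild type and 293 to 369 in the mutant libraries. The lists of 3 further cell types follow. The summed level of 14 oligodendrocyte markers was 2736 and 2482 CPM in wild type, 6216 and 6264 in vehicle-treated mutants, and 2521 and 5913 in GSK-LSD1-treated mutants. That of 12 astrocyte markers was 4100 and 5037, 5565 and 5786, and 5553 and 5633 CPM in the same order, and that of 10 excitatory neuron markers was 4629 and 4457, 3854 and 3899, and 3985 and 3436 CPM. By the test, 0 of 14 oligodendrocyte markers were called in any comparison, 3 of 12 astrocyte markers were higher in Shank3 vehicle and 4 in Shank3 GSK-LSD1 than in wild type, and 1 and 3 of 10 excitatory neuron markers were lower. Of all genes, 1.27% were called in Shank3 vehicle and 2.62% in Shank3 GSK-LSD1 against wild type, and 0.107% between the mutant groups. None of the oligodendrocyte, astrocyte and excitatory neuron lists had a marker at 0 in all libraries. The part of these shifts in the values of the pathway genes was not tested beyond a fit with the oligodendrocyte level as a covariate. In that fit no member passed the test in any of the 3 comparisons. Within groups this level differed widely only in the GSK-LSD1 pair, so its slope in the fit rests largely on 2 libraries. The level also runs nearly along with the step from wild type to Shank3 vehicle. Values from this fit, here and below, therefore do not separate the oligodendrocyte level from the group. In bulk tissue, fewer cells of a type and less RNA per cell cannot be told apart.

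**Figure D1:**
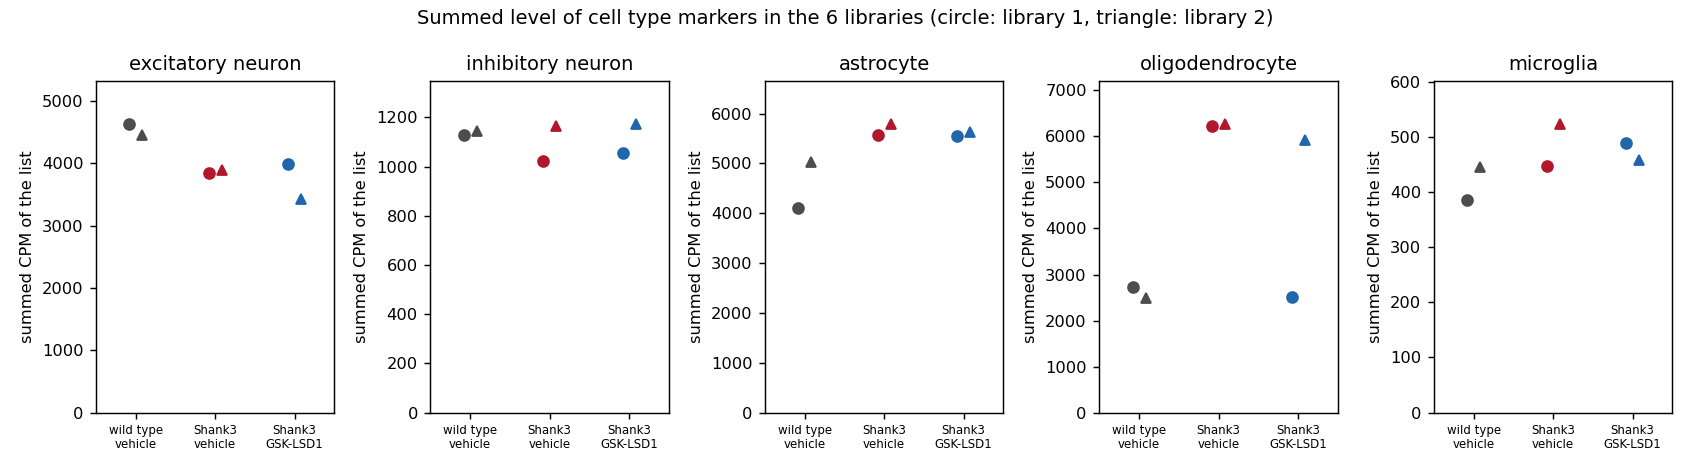
Summed CPM of the cell type marker lists (vertical axis) in each of the 6 libraries by group, with the first library of a group as a circle and the second as a triangle. The oligodendrocyte sum is 2482 to 2736 CPM in the WT libraries and 6216 to 6264 in Shank3 vehicle, and the 2 GSK-LSD1 libraries differ from each other at 2521 and 5913.

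Each family was led by 1 gene. To compare genes with each other, CPM was divided by the exonic length in kilobases (RPKM), and values are mean ± SD over the 6 libraries. That length joins the exons of all annotated transcripts of a gene, so it can exceed that of the transcripts expressed. The order and the shares below depend on it. In CPM, the wild-type means were 511 for Pak1 and 450 for Cfl1, 268 for Cdc42 and 233 for Rac1, and 73.0 for Limk2 and 62.3 for Limk1. Cfl1, the cofilin found in most cells, had the highest level at 157 ± 10.3 RPKM. Pak1 followed with 133 ± 11.1 and Cdc42 with 99.3 ± 9.68 RPKM. Rac1 stood at 53.4 ± 2.20, and these first 4 genes kept this order in each library. Pak3, an X-linked kinase tied to intellectual disability, was at 24.4 ± 1.96 RPKM and Cfl2, the cofilin prominent in muscle, at 21.6 ± 2.07. Pak3 was the higher of this pair in 5 of 6 libraries. Limk2 was at 12.2 ± 0.606 RPKM. The lowest levels were those of Rhoa at 9.71 ± 0.730, Pak2 at 9.10 ± 0.420 and Limk1 at 8.41 ± 0.657 RPKM. Rhoa exceeded Pak2 in 5 libraries and Pak2 exceeded Limk1 in 4, so the last 3 places are not separated beyond the spread. The levels of Cfl1, Cdc42 and Rhoa do not count the reads on their copies.

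These proportions were held closely across the 3 groups. Pak1 made up 78.4% to 81.3% of the RPKM of its family in single libraries, Pak3 13.6% to 16.0% and Pak2 4.97% to 6.27%. Cfl1 made up 86.8% to 89.8% of the 2 cofilins. Limk2 took 56.7% to 61.7% of the LIM kinase total, with its lowest and its highest share in the 2 Shank3 vehicle libraries. Cdc42 took 58.7% to 62.7% of the 3 GTPases, Rac1 31.7% to 35.1% and Rhoa 5.38% to 6.47%. Together the 10 genes accounted for 0.189% to 0.222% of the counted reads of a library.

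Among the GTPases, Cdc42 showed the widest separation of mutant from wild-type libraries. Cdc42, which drives filopodia and spine growth, was at 255 and 282 CPM in wild type, 327 and 300 in vehicle-treated mutants, and 326 and 278 in GSK-LSD1-treated mutants. Both Shank3 vehicle libraries lay above both wild-type libraries. The first GSK-LSD1 library lay within the Shank3 vehicle range and the second within the wild-type range. The fitted log2 difference of Shank3 vehicle from wild type was 0.22 ± 0.11 (SE), a fold of 1.17 with a 95% interval of 0.989 to 1.38, and its adjusted p was 0.398 in edgeR's quasi-likelihood test with Benjamini-Hochberg adjustment. With the oligodendrocyte level as a covariate this difference was 0.42, with an adjusted p of 0.293, in a fit whose slope rests largely on the GSK-LSD1 pair. Under length and GC content offsets with a replicate block it was 0.11, and leaving out 1 library in turn gave 0.15 to 0.30. Its log2 difference was -0.05 ± 0.11 for the inhibitor against vehicle in the mutants (adjusted p 0.999) and 0.17 ± 0.11 for treated mutants against wild type (adjusted p 0.519).

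Rac1, the GTPase that drives branched actin in spines, was nearly level across the libraries. It stood at 231 and 236 CPM in wild type, 253 and 235 in vehicle-treated mutants, and 252 and 233 in GSK-LSD1-treated mutants, so each pair of groups overlapped. Its log2 differences were 0.06 ± 0.10 for Shank3 vehicle against wild type, -0.01 ± 0.10 for the inhibitor against vehicle in the mutants and 0.05 ± 0.10 for treated mutants against wild type, with adjusted p of 0.857, 0.999 and 0.867. Rhoa, whose product promotes contraction through ROCK, was at 67.4 and 71.0 CPM in wild type, 82.6 and 69.7 in vehicle-treated mutants, and 70.7 and 75.5 in GSK-LSD1-treated mutants. Only the first Shank3 vehicle library was set apart, and its distance from the second of its group was the widest of the 10 genes in that group. The 3 log2 differences of Rhoa were 0.14 ± 0.11, -0.06 ± 0.11 and 0.08 ± 0.11 in the same order, and the adjusted p of the first was 0.649. Without the first Shank3 vehicle library the first difference was 0.00276 on the log2 scale.

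The PAK kinases showed no step between groups that exceeded the larger distance between the 2 mice of a group. Pak1, the main neuronal PAK, was at 472 and 550 CPM in wild type, 561 and 485 in vehicle-treated mutants, and 573 and 493 in GSK-LSD1-treated mutants. The first and second libraries of each group lay about equally far apart, and the groups overlapped. Its log2 differences were 0.03 ± 0.12, 0.03 ± 0.12 and 0.06 ± 0.12 for Shank3 vehicle against wild type, GSK-LSD1 against Shank3 vehicle and GSK-LSD1 against wild type. Pak2, the PAK found in most cell types, was at 57.9 and 62.1 CPM, 61.6 and 66.8, and 60.9 and 61.9, and its differences were 0.09 ± 0.10, -0.06 ± 0.10 and 0.03 ± 0.10 (log2). Pak3 was at 234 and 259 CPM in wild type, 227 and 226 in vehicle-treated mutants, and 249 and 205 in GSK-LSD1-treated mutants. The 2 Shank3 vehicle libraries were almost equal and lay just below both wild-type libraries, while the GSK-LSD1 libraries lay on either side of them. Its log2 differences were -0.12 ± 0.11 (adjusted p 0.714), 0.01 ± 0.11 and -0.12 ± 0.11. With the oligodendrocyte level as a covariate, the first of these was 0.11.

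The LIM kinases varied as much within groups as between them. Limk1, the LIM kinase most studied in spines, was at 64.3 and 60.3 CPM in wild type, 66.1 and 56.8 in vehicle-treated mutants, and 60.7 and 53.3 in GSK-LSD1-treated mutants. The lowest library was a GSK-LSD1 library and the highest a Shank3 vehicle library, and the groups overlapped in each comparison. The log2 differences of Limk1 were -0.02 ± 0.11, -0.11 ± 0.11 and -0.12 ± 0.11, with adjusted p of 0.967, 0.990 and 0.670. The sign of the first changed with upper quartile scaling, library size scaling and length and GC content offsets, with values of 0.01, 0.05 and 0.09. Limk2, the second LIM kinase, was at 77.4 and 68.7 CPM, 73.7 and 78.0, and 77.2 and 72.1, all within the range of the wild-type pair except the second Shank3 vehicle library. Its differences were 0.06 ± 0.11, -0.02 ± 0.11 and 0.03 ± 0.11 (log2).

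The cofilins, at the end of the pathway, did not pass the test in any comparison. Cfl1 was at 451 and 448 CPM in wild type, 482 and 464 in vehicle-treated mutants, and 447 and 394 in GSK-LSD1-treated mutants. Both Shank3 vehicle libraries were the highest and both GSK-LSD1 libraries the lowest of the 6, the first of the latter by a narrow margin. The log2 difference was 0.07 ± 0.11 for Shank3 vehicle against wild type (adjusted p 0.843), -0.17 ± 0.11 for GSK-LSD1 against Shank3 vehicle (fold 0.890, 95% interval 0.759 to 1.04, adjusted p 0.968) and -0.10 ± 0.11 for GSK-LSD1 against wild type (adjusted p 0.746). With the reads of its copies added, an alternative chosen after seeing the data, these were 0.07, -0.13 and -0.06, and none passed the test.

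Cfl2 had the smallest p-value of the 10 genes for Shank3 vehicle against wild type. It was at 58.7 and 71.4 CPM in wild type, 78.7 and 74.6 in vehicle-treated mutants, and 70.8 and 69.2 in GSK-LSD1-treated mutants. Both Shank3 vehicle libraries lay above the other 4, and both GSK-LSD1 libraries lay between the wild-type pair, which was the widest pair of Cfl2. The log2 difference was 0.23 ± 0.11 for Shank3 vehicle against wild type, a fold of 1.18 with a 95% interval of 0.9995 to 1.38 and an adjusted p of 0.358. It was 0.10 without the first and 0.38 without the second wild-type library (adjusted p 0.162 in the latter case), and 0.04 with length and GC content offsets. For GSK-LSD1 against Shank3 vehicle it was -0.13 ± 0.11 (adjusted p 0.988), and 0.02 with the length and GC content offsets. For GSK-LSD1 against wild type it was 0.10 ± 0.11 (adjusted p 0.735).

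**Figure D2:**
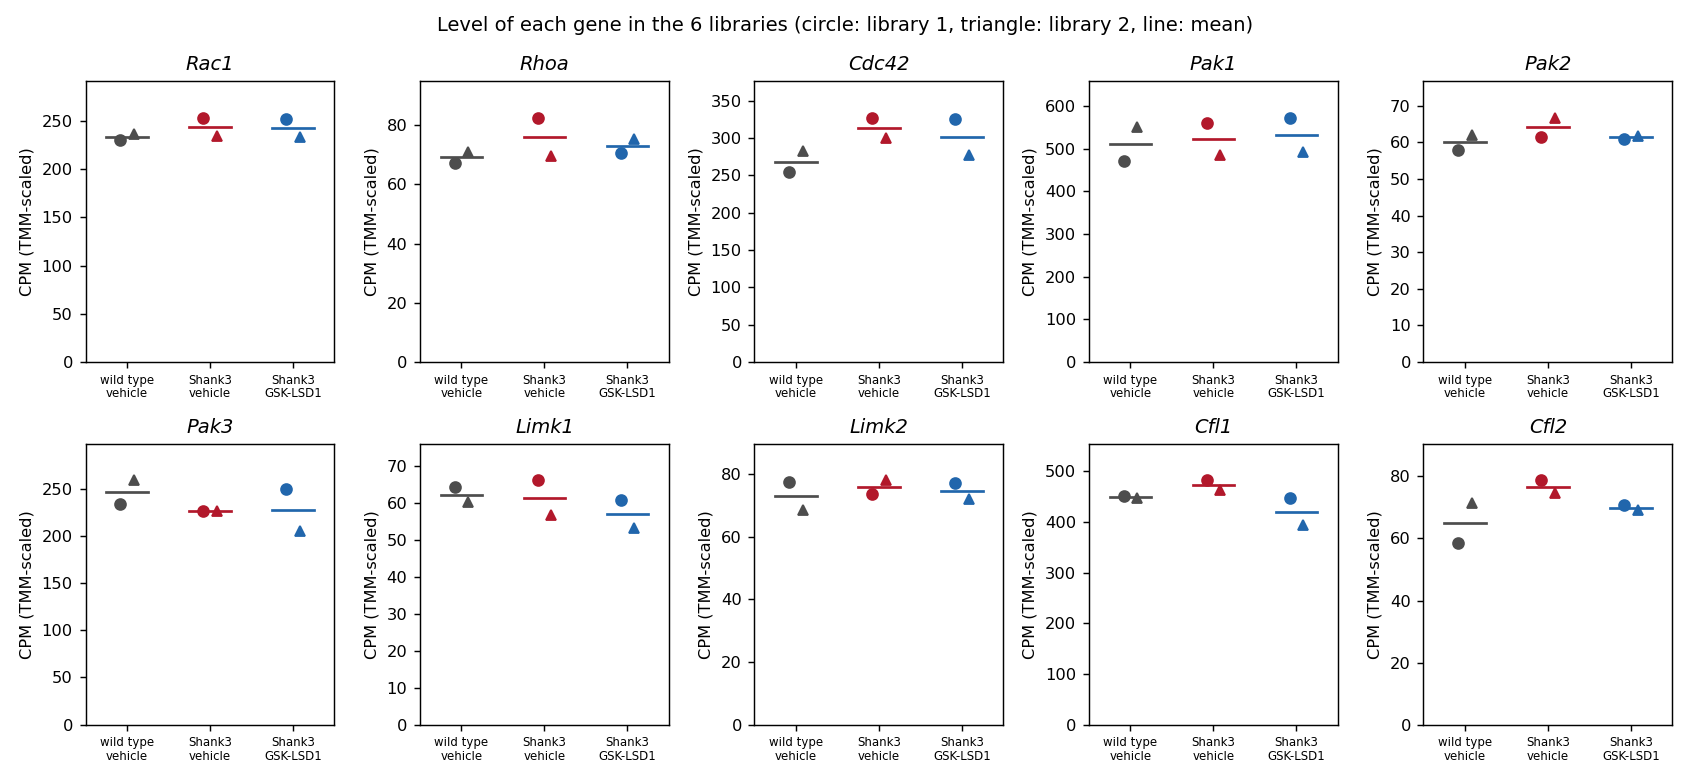
CPM of the 10 genes in each of the 6 libraries, 1 panel per gene, with the first library of each group as a circle, the second as a triangle and their mean as a short line. In Cdc42, Cfl1 and Cfl2 both Shank3 vehicle points lie above both WT points, and in Pak3 both lie below.

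Set against all genes, the 10 members did not stand out in the mutants under vehicle. This comparison sets Shank3 +/ΔC mice against wild-type mice, both under vehicle. The genetic background of the mutants is not stated, so the deletion cannot be told apart from a difference in background. Of the 10 genes 0 passed an adjusted p of 0.05 in edgeR's quasi-likelihood test, where 238 of 18705 genes, 1.27%, did. At an unadjusted p under 0.05 the count was also 0, against 2628 genes (14%) over the whole table. DESeq2 and limma-voom each called 0 members, against 3.22% and 0.732% of all genes. The groups did not overlap with the mutants higher in 3 members, Cdc42, Cfl1 and Cfl2, against 23.1% of all genes, and with the mutants lower in 1, Pak3, against 23.1%. The median log2 difference was 0.07 for the members and 0.02 for all genes, and the median size without sign was 0.08 against 0.19. The members lie between percentiles 79.4 (Limk1) and 98.8 (Pak1) of tested genes by mean CPM. The 2 median sizes therefore come from genes at unlike levels, and low counts vary more. In Cdc42 and Cfl1 the step between groups was larger than the larger step between the 2 mice of a group, and in the other 8 members it was smaller.

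Treatment of the mutants with GSK-LSD1 gave no called member. Of the members 0 passed an adjusted p of 0.05, against 20 of 18705 genes, or 0.107%. DESeq2 and limma-voom called 0 members, against 0.187% and 0.0855% of all genes. At an unadjusted p under 0.05 there were 0 members, against 5.7% of all genes. The groups did not overlap with the treated mice lower in 2 members, Cfl1 and Cfl2 (16.6% of all genes), and with the treated mice higher in 0 (17.0%). The members' median log2 difference was -0.06 and that of all genes -0.0007, with median sizes of 0.06 and 0.14, again from genes at unlike levels. Cfl2 was the member in which the step between groups exceeded the larger step within them. In the GSK-LSD1 group 8 of 10 members were lower in the second library than in the first. The count was also 8 in Shank3 vehicle, and it was 3 in wild type. The GSK-LSD1 libraries held 2521 and 5913 CPM of oligodendrocyte markers, and the Shank3 vehicle libraries 6216 and 6264. The part of the oligodendrocyte level in these steps between libraries was not tested.

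Treated mutants set against wild type gave no called member either. Of the members 0 passed an adjusted p of 0.05, against 491 genes or 2.62%, with 0 at an unadjusted p under 0.05 against 2941 genes or 15.7%. DESeq2 and limma-voom called 0 members, against 4.18% and 2.09% of all genes. Cfl1 was the 1 member whose groups did not overlap with the treated mice lower (22.4% of all genes), and 0 members did so with the treated mice higher (23.5%). The median log2 difference was 0.04 for the members and 0.02 for all genes. The 3 comparisons share libraries in pairs, so their values are not independent of each other.

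The precision of the design bounds what could have been missed. All 30 intervals of the 10 genes in the 3 comparisons included 0. Over Shank3 vehicle against wild type they ran from -0.36 (Pak3) to 0.47 (Cfl2) on the log2 scale, over GSK-LSD1 against Shank3 vehicle from -0.40 (Cfl1) to 0.28 (Pak1), and over GSK-LSD1 against wild type from -0.36 (Limk1) to 0.41 (Cdc42). In fold these bounds lie between 0.759 and 1.38. A p-value above the threshold in 2 mice per group does not show that levels were equal. Differences inside the interval of a gene remain compatible with its values, and the intervals are not a limit of detection. The members were called in 0 of 60 further fits (20 alternatives in 3 comparisons), and their smallest adjusted p in any of these fits was the 0.162 of Cfl2.

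**Figure D3:**
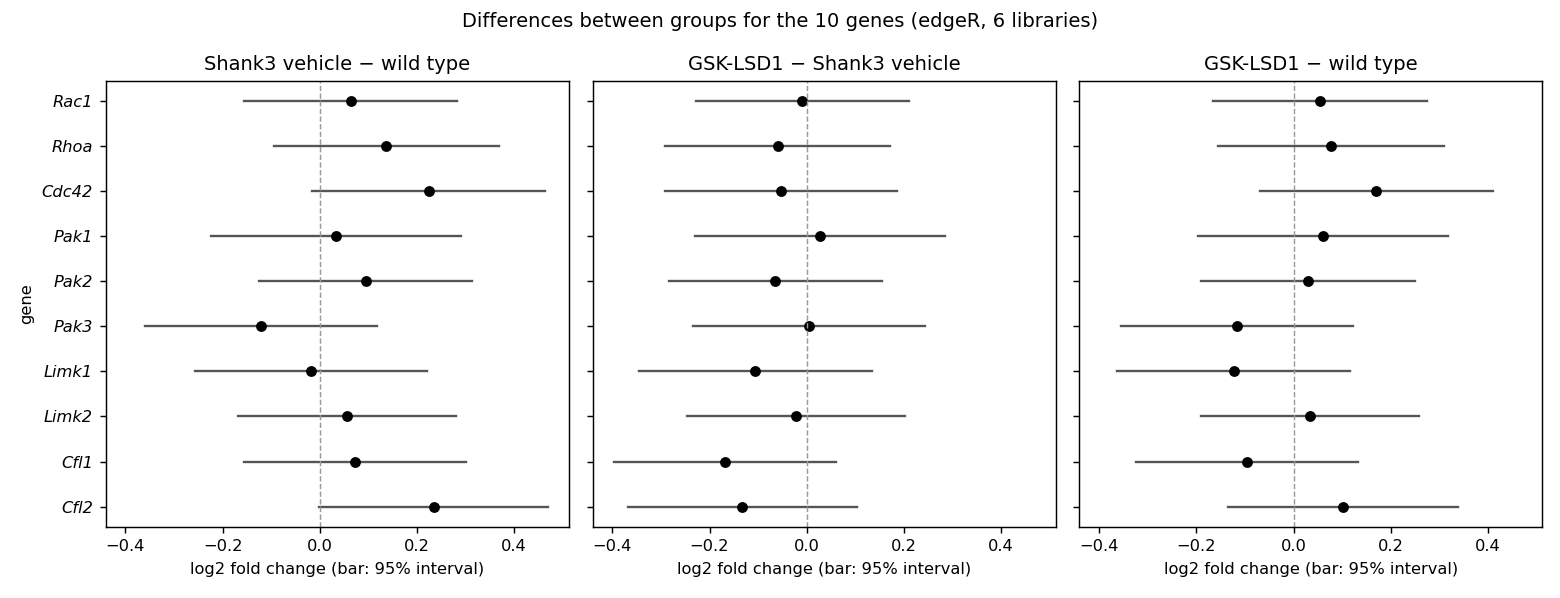
Log2 difference (horizontal axis) of each of the 10 genes (vertical axis) in the 3 comparisons, 1 panel each, with 95% intervals from the quasi-likelihood fit as bars. All 30 intervals cross 0, and the points farthest from 0 are Cfl2 and Cdc42 for Shank3 vehicle against WT, at 0.23 and 0.22.

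The genes that act on the pathway were followed in 8 lists with 171 symbols, of which 166 were tested. In Shank3 vehicle against wild type 3 of them passed (1.81%, against 1.27% of all genes), 1 higher and 2 lower. In GSK-LSD1 against Shank3 vehicle 0 passed by edgeR, DESeq2 or limma-voom, against 0.107% of all genes. In GSK-LSD1 against wild type 8 passed (4.82%, against 2.62%), 0 higher and 8 lower. At an unadjusted p under 0.05 there were 48, 7 and 46 of the 166 in Shank3 vehicle against wild type, GSK-LSD1 against Shank3 vehicle and GSK-LSD1 against wild type, where 14%, 5.7% and 15.7% of all genes had such a p. The counts of single lists below are to be read against these shares and against the 1.27%, 0.107% and 2.62% of all genes called by edgeR. For the counts by DESeq2 the shares of all genes called were 3.22%, 0.187% and 4.18%. For those by limma-voom they were 0.732%, 0.0855% and 2.09%. The median log2 difference of the 166 genes was -0.06, -0.03 and -0.06 in the 3 comparisons. In the last comparison RLE scaling gave 1 higher and 8 lower, upper quartile scaling 0 and 6, and library size scaling 0 and 1. No filter on low counts gave 5 higher and 10 lower, and length and GC content offsets with a replicate block 4 and 6. In Shank3 vehicle against wild type upper quartile scaling gave 1 higher and 0 lower, and library size scaling called 0. No filter gave 9 higher and 6 lower there, and the offsets with the block 8 and 1. The numbers of higher and of lower calls thus depended on the fit. The log2 difference of each gene called in the fit reported kept its sign in the alternatives that tested it. Leaving out 1 library also changed these counts.

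Exchange factors load the GTPases with GTP. Of 29 that act on Rac or Cdc42, Dock2 rose in Shank3 vehicle (1 of 29, against 1.27% of all genes) and Farp1 fell in GSK-LSD1 against wild type (1 of 29, against 2.62%). At an unadjusted p under 0.05 there were 14 and 12 of the 29 in these comparisons, DESeq2 called 5 and 6, and limma-voom 1 and 1. Dock2, the Rac exchange factor of leukocytes and microglia, was at 1.57 and 2.02 CPM in wild type, 5.10 and 4.76 in vehicle-treated mutants, and 2.37 and 2.79 in GSK-LSD1-treated mutants. The Shank3 vehicle pair stood clear above the other 4 libraries. Its log2 difference was 1.43 ± 0.30 for Shank3 vehicle against wild type (adjusted p 0.0302) and -0.94 ± 0.29 for GSK-LSD1 against Shank3 vehicle (adjusted p 0.505). The summed level of 14 microglia markers was 385 and 446 CPM in wild type, 447 and 523 in vehicle-treated mutants, and 488 and 458 in GSK-LSD1-treated mutants, with none at 0 in all libraries and 1 (Itgam) higher by the test in Shank3 vehicle. Its part in the level of Dock2 was not tested. The call on Dock2 was lost without the first wild-type library (1.28) and without the first (1.37) or the second (1.48) Shank3 vehicle library. It was also lost with the oligodendrocyte level as a covariate (1.301, adjusted p 0.295), without the robust step (adjusted p 0.0605) and with library size scaling (1.501, adjusted p 0.0568).

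Farp1 is a Rac exchange factor of dendrites and synapses. It was at 110 and 99.8 CPM in wild type, 78.0 and 83.3 in vehicle-treated mutants, and 78.7 and 68.8 in GSK-LSD1-treated mutants. Both mutant groups lay below wild type. The log2 difference was -0.51 ± 0.11 (adjusted p 0.0191) for GSK-LSD1 and -0.38 ± 0.11 (adjusted p 0.0942) for vehicle. The first was lost without the first wild-type (-0.44) or the second GSK-LSD1 library (-0.41), and with library size scaling (-0.43). Of 14 exchange factors for RhoA 0 passed in any comparison. The smallest p-values there belonged to Plekhg5 at -0.35 ± 0.11 (adjusted p 0.156) and -0.37 ± 0.11 (adjusted p 0.101) against wild type, in vehicle and GSK-LSD1, and to Arhgef28 at 0.35 ± 0.11 for GSK-LSD1 against Shank3 vehicle (adjusted p 0.505). At an unadjusted p under 0.05 there were 3, 1 and 2 of these 14 in the 3 comparisons (14%, 5.7% and 15.7% of all genes), DESeq2 called 1, 0 and 0, and limma-voom 0.

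GTPase-activating proteins switch the GTPases off, and this list of 28, which also has the GDP dissociation inhibitors, had 2 of 28 called in Shank3 vehicle (1.27% of all genes) and 4 of 28 in GSK-LSD1 against wild type (2.62% of all genes). Arhgap32 and Arhgap33 fell in Shank3 vehicle, and these 2 with Srgap3 and Arhgap21 fell in GSK-LSD1 against wild type. Arhgap32, a large neuronal GAP of the postsynaptic density, was at 1082 and 1068 CPM in wild type, 790 and 758 in vehicle-treated mutants, and 768 and 808 in GSK-LSD1-treated mutants. The 4 mutant libraries lay together and apart from wild type. The log2 difference was -0.47 ± 0.11 for vehicle (adjusted p 0.0435) and -0.45 ± 0.11 for GSK-LSD1 (adjusted p 0.0363). Arhgap33, a neuronal sorting nexin with a GAP domain, was at 133 and 104 CPM in wild type, 78.7 and 83.7 in vehicle-treated mutants, and 84.1 and 75.8 in GSK-LSD1-treated mutants. Its differences were -0.54 ± 0.12 (adjusted p 0.0369) and -0.56 ± 0.12 (adjusted p 0.0191), and the wild-type pair was the widest. Srgap3, which slows Rac in neurons and has been tied to intellectual disability, was at 378 and 295 CPM in wild type, 225 and 257 in vehicle-treated mutants, and 192 and 240 in GSK-LSD1-treated mutants. Arhgap21, a GAP for Cdc42, was at 209 and 178, 145 and 153, and 137 and 146 CPM. In both genes the mutant libraries lay below both wild-type libraries, and the log2 differences of GSK-LSD1 from wild type were -0.64 ± 0.14 for Srgap3 (adjusted p 0.0227) and -0.45 ± 0.11 for Arhgap21 (adjusted p 0.0345). The summed level of the excitatory neuron markers was also lower in the mutant libraries (3436 to 3985 CPM, against 4457 and 4629). Of the 10 markers, 8 were lower and 2 higher than in wild type, in vehicle as in GSK-LSD1. The part of these markers in the differences of the GTPase-activating proteins was not tested. The GAP with the smallest p for GSK-LSD1 against Shank3 vehicle was Arhgap5, at -0.32 ± 0.12 (adjusted p 0.774).

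Each of these calls was lost when some single library was left out. For Shank3 vehicle, Arhgap32 was lost without any 1 of the 4 libraries compared (-0.44 to -0.51), and Arhgap33 without the first wild-type (-0.36), the first Shank3 vehicle (-0.50) or the second Shank3 vehicle library (-0.58). For GSK-LSD1, Arhgap32 was lost without any 1 of the 6 libraries (-0.42 to -0.48) and Arhgap33 without the first wild-type (-0.38) or the second GSK-LSD1 library (-0.49). Srgap3 was lost without the first wild-type (-0.45) or the first GSK-LSD1 library (-0.49), and Arhgap21 without the first wild-type (-0.33), the first Shank3 vehicle (-0.45), the first GSK-LSD1 (-0.41) or the second GSK-LSD1 library (-0.49). Length and GC content offsets ended the call on Arhgap32 in vehicle (-0.35, adjusted p 0.157) and in GSK-LSD1 (-0.30, adjusted p 0.196), and those on Arhgap33 in vehicle (-0.43, adjusted p 0.0624) and Arhgap21 (-0.38, adjusted p 0.0587). Library size scaling ended all 6 calls, with values of -0.36 to -0.55. Under the oligodendrocyte covariate both vehicle calls were lost, at -0.53 for Arhgap32 (adjusted p 0.122) and -0.49 for Arhgap33 (adjusted p 0.299). Over all alternatives, Arhgap32 was called in 10 of 20 in either comparison, Arhgap33 in 11 in vehicle and 17 in GSK-LSD1, Srgap3 in 17 and Arhgap21 in 12.

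Downstream of Cdc42, 2 of 21 effectors fell in GSK-LSD1 against wild type (against 2.62% of all genes called) and 0 passed in the other comparisons. Fnbp1l, also known as Toca-1, helps Cdc42 switch on N-WASP, the product of Wasl, which starts branched actin through the Arp2/3 complex. Fnbp1l was at 127 and 120 CPM in wild type, 105 and 101 in vehicle-treated mutants, and 81.9 and 73.9 in GSK-LSD1-treated mutants. The 3 groups were ordered without overlap. Its log2 difference of GSK-LSD1 was -0.67 ± 0.10 from wild type (adjusted p 0.00475) and -0.40 ± 0.10 from Shank3 vehicle (adjusted p 0.296), and that of Shank3 vehicle from wild type was -0.26 ± 0.10 (adjusted p 0.241). Wasl had the same order, with 143 and 144 CPM in wild type, 124 and 118 in vehicle-treated mutants, and 108 and 109 in GSK-LSD1-treated mutants, and a difference of -0.41 ± 0.10 for GSK-LSD1 against wild type (adjusted p 0.0380). Fnbp1l was lost without the first wild-type library (-0.63), and Wasl without any 1 of the 6 (-0.41 each, with adjusted p up to 0.272). Fnbp1l was called in 19 and Wasl in 10 of 20 alternatives, and Wasl was also lost with library size scaling (-0.32) and upper quartile scaling (-0.38). Fnbp1, a relative of Fnbp1l, had the smallest p of the list for Shank3 vehicle at 0.56 ± 0.18 (adjusted p 0.184). For that comparison 6 of the 21 had an unadjusted p under 0.05, with 1 called by DESeq2 and 0 by limma-voom, and for GSK-LSD1 against Shank3 vehicle 2, 0 and 0.

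Among 25 regulators of cofilin and actin turnover, Ssh2 fell in GSK-LSD1 against wild type (1 of 25, against 2.62% of all genes). Ssh2 is a slingshot phosphatase, which removes the phosphate that LIM kinases place on cofilin. It was at 85.1 and 73.9 CPM in wild type, 64.9 and 63.7 in vehicle-treated mutants, and 56.6 and 61.7 in GSK-LSD1-treated mutants, with a log2 difference of -0.42 ± 0.11 (adjusted p 0.0454). The call was lost without the first wild-type (-0.32), either Shank3 vehicle (-0.43 each), the first GSK-LSD1 (-0.37) or the second GSK-LSD1 library (-0.48). It held in 7 of 20 alternatives. Length and GC content offsets gave -0.26 (adjusted p 0.205), library size scaling -0.34 and upper quartile scaling -0.40, and the call was also lost with limma-voom (adjusted p 0.0672), the replicate block (adjusted p 0.0625), no robust step (adjusted p 0.0728) and only the 4 libraries compared (adjusted p 0.0762). Its paralogue Ssh1 had the smallest p in Shank3 vehicle against wild type, at -0.41 ± 0.14 (adjusted p 0.169). Gmfb, an actin debranching factor, had the smallest p in GSK-LSD1 against Shank3 vehicle, at -0.26 ± 0.11 (adjusted p 0.831). In those 2 comparisons 4 and 1 of the 25 had an unadjusted p under 0.05, and DESeq2 and limma-voom called 0.

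The lists of RhoA effectors and of group II PAKs had 0 genes past the threshold in each comparison. Of 21 RhoA effectors, Myh10, the heavy chain of a non-muscle myosin, came nearest, at -0.41 ± 0.11 (adjusted p 0.0873) in vehicle and -0.39 ± 0.11 (adjusted p 0.0806) in GSK-LSD1 against wild type. Cit, citron kinase, did so for GSK-LSD1 against Shank3 vehicle, at -0.23 ± 0.11 (adjusted p 0.897). The counts at an unadjusted p under 0.05 were 5 and 7 against wild type, in vehicle and GSK-LSD1, and 0 against Shank3 vehicle, with 1, 2 and 0 called by DESeq2 and 0 by limma-voom. Of 12 group II PAKs and PAK adaptors, Ppm1e, a phosphatase that turns PAK off, had the smallest p against wild type, at -0.20 ± 0.11 (adjusted p 0.440) in vehicle and -0.29 ± 0.11 (adjusted p 0.183) in GSK-LSD1, and Parva against Shank3 vehicle, at -0.17 ± 0.12 (adjusted p 0.976). In this last list 0, 3 and 0 had an unadjusted p under 0.05, and DESeq2 and limma-voom called 0.

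**Figure D4:**
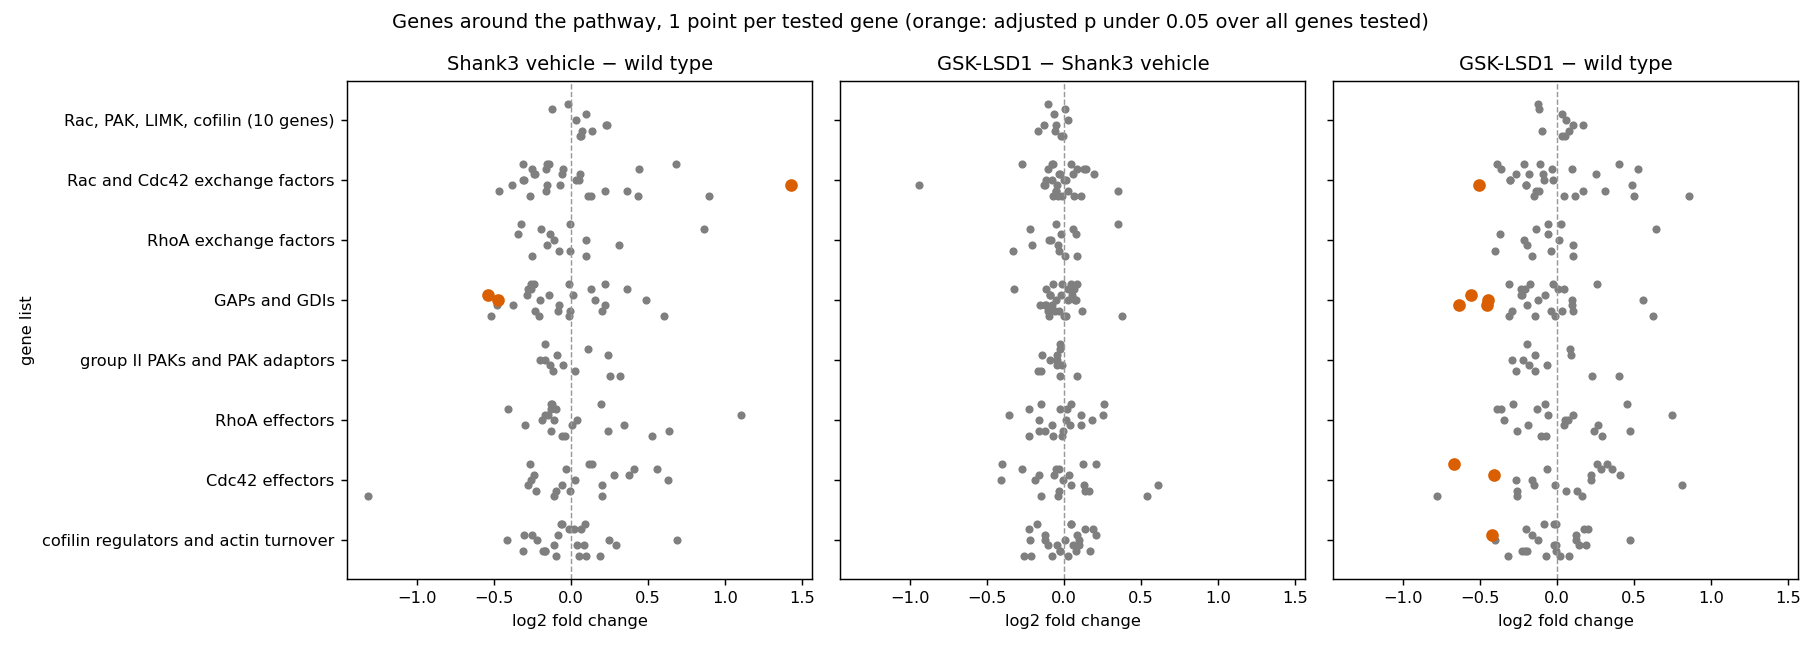
Log2 difference (horizontal axis) of the 10 members and of each tested gene of 7 of the 8 pathway lists (vertical axis) in the 3 comparisons, 1 panel each, with genes past an adjusted p of 0.05 in orange. Orange points number 3, 0 and 8, and all but Dock2 lie below 0.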

How the data were processed

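The authors deposited raw read counts per gene symbol, 1 table per library, for 6 libraries of ribosome-depleted RNA made with a stranded kit, per the labels' protocols. Reads were trimmed with cutadapt, aligned with TopHat2 to mm10 (GRCm38) and counted with featureCounts, and SAMtools and edgeR are also named, per the submitters' processing notes; their versions were not given there.

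The counts as deposited were filtered with filterByExpr, scaled by TMM and fitted with edgeR 4.0.16 (R 4.3.3), using a robust quasi-likelihood model of 3 groups over the 6 libraries (3 residual degrees of freedom, biological coefficient of variation 11.5%). Two-sided p-values were adjusted by Benjamini-Hochberg over all 18705 genes, with a threshold of 0.05. SEs were the log2 difference divided by the root of F. DESeq2 1.42.0 and limma-voom (limma 3.58.1) were among 20 alternatives. With 2 mice per group p-values rest on little replication. Positions, exonic lengths for RPKM and copies (blastn, at least 90% identity over at least 200 bases) came from GENCODE M21, which held 98.4% of tested symbols. The fit was tested on simulated counts with 200 changed genes. Named were the 10 members and, in each pathway list and comparison, the genes that passed or otherwise the 1 with the smallest p. Members and lists were chosen with earlier results of these data known. Marker lists of precursor cells, endothelium, inhibitory and striatal neurons and of hypothalamus, septum and preoptic area were also summed; these ran from 228 to 369, 261 to 335, 1022 to 1172, 196 to 240 and 17.5 to 62.6 CPM over the libraries. Of the 8 pathway lists, 1 enters the totals only and is not reported here by itself.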

Additional observations from a re-analysis of the deposited data

How the results depend on the processing

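With 2 libraries per group, differences within the intervals given above remain compatible with the values. No group was large enough to look for outlying samples. Where 1 library was left out, the lone library of its group was assumed to vary like the others. None of the 10 genes was called in any of the 60 alternative fits. The number of genes called over the whole table moved far more, and the cause was not tested. For Shank3 vehicle against wild type (238 genes in the fit reported) it was 141 with upper quartile scaling, 35 with library size scaling, 807 with no filter on low counts, 602 with DESeq2, 137 with limma-voom, 11 without the robust step, 524 with only the 4 libraries compared, 141 with length and GC content offsets, 87 with the oligodendrocyte level as a covariate, and 6 to 656 with 1 library left out. For GSK-LSD1 against Shank3 vehicle (20 genes) it was 106 with no filter, 35 with DESeq2 and 10 to 83 with 1 library left out. For GSK-LSD1 against wild type (491 genes) it was 253 with library size scaling, 962 with no filter, 782 with DESeq2 and 6 to 631 with 1 library left out. The replicate numbers did not pair the mice (correlations of the replicate differences over 13961 genes between groups of -0.0501, 0.0760 and -0.0577), and with the replicate block 233, 18 and 505 genes were called.

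Signs of log2 differences that turned, none called in either sign, were these. For Shank3 vehicle against wild type, Pak1 was -0.00427 with length and GC content offsets and the replicate block. Pak3 was 0.11 and Limk1 0.10 with the oligodendrocyte covariate. Limk1 was also 0.00677 with upper quartile scaling, 0.0539 with library size scaling, 0.0872 with length and GC content offsets and 0.0758 with these and the block. For GSK-LSD1 against Shank3 vehicle, Pak1 was -0.0924 and Pak3 -0.14 with the oligodendrocyte covariate, Pak3 -0.00127 with limma-voom, and Cfl2 0.0180 with length and GC content offsets, with or without the block. With 1 library left out, the range for Shank3 vehicle against wild type was -0.0820 to 0.14 for Pak1, -0.14 to 0.0882 for Limk1 and -0.0350 to 0.14 for Limk2. For GSK-LSD1 against Shank3 vehicle it was -0.0685 to 0.0509 for Rac1, -0.18 to 0.0725 for Rhoa, -0.18 to 0.0625 for Cdc42, -0.0895 to 0.14 for Pak1, -0.14 to 0.14 for Pak3, -0.21 to 0.0130 for Limk1 and -0.0753 to 0.0313 for Limk2. For GSK-LSD1 against wild type it was -0.00877 to 0.11 for Rac1, -0.0608 to 0.17 for Pak1, -0.0218 to 0.0806 for Pak2, -0.27 to 0.0168 for Pak3, -0.0548 to 0.12 for Limk2 and -0.0317 to 0.25 for Cfl2.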
